A study of Homo sapiens with 6 samples.

Results

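The E2F transcription factors and the pocket proteins p107 and p130 were examined in FUJIOKA, a cell line from human acute myeloid leukaemia that the study describes as close to complex karyotype disease. The members were the 10 rows of the deposited table named E2F1 to E2F8, RBL1 and RBL2, out of 63236 genes, and each name had 1 row. The series holds 3 libraries of cells with a scrambled control shRNA (shNEG) and 3 of cells with a shRNA against SPINK2 (shSPINK2), both integrated by lentivirus, selected with puromycin and switched on by doxycycline. The methods name 1 SPINK2 shRNA and the treatment protocol in the sample labels 2, without saying which of them a library carries or for how long it was induced, and nothing states that the 3 libraries of a group came from separate cultures. The measurement used is the mean normalized count of each gene over all 6 libraries, both groups together. The deposited table holds no value per library, and its own comparison of the groups was not used, so every level below belongs to shNEG and shSPINK2 cells pooled, has no spread between replicates, and shSPINK2 and shNEG are not compared.

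E2F proteins bind DNA at the promoters of genes for DNA replication and division, most of them as dimers with a DP protein. E2F1, E2F2 and E2F3 are known as activators and peak as cells pass from G1 into S phase, E2F4 and E2F5 act as repressors together with the pocket proteins p107 (RBL1) and p130 (RBL2), and E2F6 represses without pocket proteins, within a Polycomb complex. E2F7 and E2F8 are atypical, since they bind DNA without a DP partner and repress genes that the activators turn on. In resting cells p130 and E2F4 hold cell cycle genes down with the MuvB proteins, in the DREAM complex, and cyclin-dependent kinases release them when cells divide.

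All 10 members were expressed, with means from 267 normalized counts for E2F5 to 6678 for E2F4. A mean of at least 10 was found for 16131 genes, with a median of 690, and 9 of the 10 members lay above that median. All members are protein-coding, and the 12444 protein-coding genes among these had a higher median, 1236, which only E2F3, E2F4, E2F8 and RBL2 exceeded. Among all 16131 genes E2F4 reached the 92.8th percentile and E2F5 the 37.9th, and the other 8 fell between the 55.2nd and the 82.2nd. These ranks use means that are not corrected for gene length. Per kilobase of exon RBL2, at the 82.2nd by mean, was at the 73.0th and E2F1 rose from the 56.2nd to the 70.6th. In bulk RNA such a level does not tell the share of cells that express a gene from the amount per cell. As size factors were close to 1, a mean of 267 stands for about 1600 reads over the 6 libraries, a counting error of 2.5%, and the mean of E2F4 for about 40068 reads, with an error of 0.50%. Intervals given below are 95% Clopper-Pearson intervals of these reads, and they cover counting error only, as no molecular identifiers are described.

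Levels of different genes were compared per kilobase of the union of a gene's exons, since longer transcripts give more reads. On this scale the repressors E2F4, E2F5 and E2F6 summed to 2155 normalized counts per kilobase, the activators E2F1, E2F2 and E2F3 to 1030, the atypical E2F7 and E2F8 to 608, and the pocket protein genes RBL1 and RBL2 to 597. The repressors made up 56.8% of the summed level of the 8 E2F genes, the activators 27.1% and the atypical genes 16.0%. Per kilobase of coding sequence, though the counts also hold reads outside it, these shares were 61.1%, 29.4% and 9.53%. These sums run over 3 genes for repressors and activators and over 2 for the other classes. Per gene and kilobase of exon, the levels were 718 for repressors, 343 for activators, 304 for atypical genes and 299 for pocket protein genes. A single gene set the order of the classes, because E2F4 alone held 49.0% of the summed level of the 8 E2F genes. Without E2F4 the repressor class, then only E2F5 and E2F6, summed to 298 normalized counts per kilobase. This was below the sums of the 3 activators and of the 2 atypical genes. Per kilobase of coding sequence E2F5 and E2F6 summed to 1481, below the 3 activators at 3304 but above the 2 atypical genes at 1072. The atypical and pocket classes differed by little and changed places with the length used, as per kilobase of the longest transcript they were at 676 and 720.

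Among the activators, E2F3 was the most abundant, with a mean of 2523 normalized counts, or 486 per kilobase of exon. E2F3 (ENSG00000112242.14) lies on chromosome 6 from 20401879 to 20493714 (GRCh38, plus strand). E2F1 (ENSG00000101412.12; chromosome 20, 33675477 to 33686385, minus strand), the founding member of the family, had a mean of 978 and 364 per kilobase. E2F2 (ENSG00000007968.6; chromosome 1, 23506438 to 23531233, minus strand) had nearly the same mean, 983, but 180 per kilobase of exon. The equality of the E2F1 and E2F2 means did not carry over to levels per exon length, because the exons of E2F2 cover 5462 bases and those of E2F1 2690. Per kilobase of coding sequence, which is 1311 bases in both genes, E2F2 stood at 1.00 times E2F1 (interval 0.97 to 1.04). As the coding length is equal, this ratio only repeats that of the means. It does not show equal levels, because the counts also hold reads outside the coding sequence. E2F3 was above both under all 3 lengths, by 1.34 to 2.42 times over E2F1 and by at least 2.41 times over E2F2. The table counts whole genes, so the 2 kinds of E2F3 protein, made from separate starts, were not told apart.

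The repressor class spanned the whole range of the family. E2F4 (ENSG00000205250.8; chromosome 16, 67192155 to 67198918, plus strand), the main E2F partner of p107 and p130, had a mean of 6678 normalized counts and stood 3.82 times above E2F3, the next gene per kilobase of exon (interval 3.75 to 3.89). E2F6 (ENSG00000169016.16; chromosome 2, 11444375 to 11466177, minus strand) had a mean of 1032 and 254 per kilobase. E2F5 (ENSG00000133740.10; chromosome 8, 85177154 to 85217158, plus strand) was the least abundant member, with a mean of 267 and 44.5 per kilobase, which puts E2F4 at 41.8 times E2F5, or 20.97 times per coding length. E2F5 was also the member whose count is least certain. Its exons share 997 bases with those of RBIS on the opposite strand, a gene with a mean of 1261, and whether reads were counted by strand is not given in the sources used here.

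Of the atypical pair, E2F8 was the more abundant under all 3 lengths. E2F8 (ENSG00000129173.12; chromosome 11, 19224063 to 19241620, minus strand) had a mean of 1903 normalized counts, against 932 for E2F7 (ENSG00000165891.15; chromosome 12, 77021248 to 77065569, minus strand). Per kilobase of exon these were 460 and 148, a ratio of 3.11 that was 2.15 per coding length. Per kilobase of exon E2F8 came next after E2F3, with E2F3 at 1.06 times E2F8 (interval 1.03 to 1.08), while only E2F5 was below E2F7. The place of E2F8 depended on the length, as per kilobase of coding sequence it was below E2F1 and the difference of these neighbours was not detectable at this depth (ratio of E2F1 to E2F8 1.02, interval 0.99 to 1.05).

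Of the pocket protein genes, RBL2, which encodes p130, the pocket protein known for its rise in resting cells, was the higher. RBL2 (ENSG00000103479.15; chromosome 16, 53433977 to 53491648, plus strand) had a mean of 3268 normalized counts and 403 per kilobase of exon. RBL1 (ENSG00000080839.11; chromosome 20, 36996349 to 37095997, minus strand), which encodes p107 and is itself known as an E2F target, had a mean of 1158 and 194 per kilobase. The ratio of RBL2 to RBL1 was 2.07, and 2.54 or 2.65 with the other lengths. RB1, the gene of the retinoblastoma protein, is no member and was looked up after its value was seen. It had a mean of 7643 normalized counts and stood at 1188 per kilobase of exon, 2.95 times RBL2 and 6.11 times RBL1, so that RB1 made up 66.5% of the summed level of the 3 pocket protein genes. Opposite-strand exons of AKTIP, with a mean of 171, share 609 bases with RBL2.

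The order of the 10 members per kilobase of exon was E2F4, E2F3, E2F8, RBL2, E2F1, E2F6, RBL1, E2F2, E2F7 and E2F5. Each of the 9 neighbouring pairs in this order differed by more than counting error, the closest being E2F3 and E2F8 and, with a ratio of 1.08 (interval 1.04 to 1.12), RBL1 and E2F2. The full order held for the union of exons only. Per kilobase of the longest transcript RBL2 came 2nd, not separable from E2F8 (ratio 1.01, interval 0.98 to 1.03), and E2F8 lay above E2F3. Per kilobase of coding sequence E2F6 came 3rd. Spread between libraries is not part of these intervals. Of 7 E2F pseudogenes in the table, E2F3P1 was the highest, with a mean of 8.12, and the other 6 were at 0.33 or less. How reads that fit a gene and its pseudogene were counted is not given in the sources used here.

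A DP protein is the partner through which E2F1 to E2F6 bind DNA, and TFDP1 was far above all of them. It had a mean of 39896 normalized counts, at the 99.5th percentile. Per kilobase of exon TFDP1 stood at 10656, which is 5.74 times E2F4 and 2.81 times the 8 E2F genes summed. The ratio to the summed E2F level was 3.26 per kilobase of the longest transcript and 2.88 per coding length. TFDP2 had a mean of 2046 and TFDP3 one of 2.99, so TFDP1 was 62.0 times TFDP2 per kilobase of exon and 21.2 times per coding length.

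Besides the DP genes, 24 partners and regulators on 4 lists were looked up, and all of these had a mean of at least 10. Of all 63236 genes 16131 reached this mean, but these take in every kind of gene, whereas all 24 are protein-coding. The 5 MuvB core genes, the shared base of DREAM and of the complexes that activate mitotic genes, ran from LIN37 at 183 normalized counts to RBBP4 at 13424, a histone-binding protein that many chromatin complexes share. The 2 factors that join MuvB in dividing cells were at 7027 for MYBL2 and 4980 for FOXM1, and MYBL2, at 2531 per kilobase of exon, was above E2F4 on that scale but below it per kilobase of coding sequence, at 3346 against 5390. Of the 8 cyclins and kinases that act on the pocket proteins, CDK6 had the highest mean, 12759 normalized counts, and the cyclin D gene CCND1 the lowest, 30.4. Per kilobase of exon CDK4 was the highest, at 1679 against 1042 for CDK6. Exons of CCND1 share 497 bases with opposite-strand exons of LTO1, at a mean of 876, and those of CDK4 1369 bases with TSPAN31, at 1106. As the strand setting is not given, reads in the shared bases may have been added to the counts of CCND1 and CDK4 or left out of them. The 9 genes of the E2F6 complex had means from 657 for PCGF6 to 6975 for CBX3, and per kilobase of exon from 103 for YAF2 to 1441 for CBX3. Exons of CBX3 share 368 bases with opposite-strand exons of HNRNPA2B1, at a mean of 39743, so the count of CBX3 has the same limit. Compared per kilobase, E2F6 was at 254, below the median of 417 of its 9 partners, and E2F4 at 1857, above the median of 165 of the MuvB core.

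Several E2F genes are known to be E2F targets themselves, and the promoters were read for the word that E2F proteins prefer. No promoter of E2F5 or E2F8 was read, so the search says nothing about these genes. RefSeq promoters of GRCh38.p14, from 250 bases before to 50 after a start, were read for the other 8 of the 10 members. They were searched on both strands for the 8-base words TTTGGCGC, TTTGCCGC, TTTCGCGC and TTTCCCGC, and the matches found here did not overlap. At least 1 of the words was found for 4 of the 8, E2F1, E2F2, E2F3 and RBL1, which are the 3 activators and 1 pocket protein gene, and not for E2F4, E2F6, E2F7 and RBL2. Among all 35116 promoters of this length 3.31% hold one. The 90 bases before the start are printed for the members with a word, 5′ to 3′ on the gene's strand, with the words in capitals, at chr20:33686386-33686475 (minus), chr1:23531234-23531323 (minus), chr6:20401789-20401878 (plus) and chr20:37095998-37096087 (minus), and none of these bases lies in an annotated exon of its gene.
E2F1: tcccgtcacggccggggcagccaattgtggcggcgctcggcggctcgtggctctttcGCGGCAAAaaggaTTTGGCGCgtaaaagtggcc
E2F2: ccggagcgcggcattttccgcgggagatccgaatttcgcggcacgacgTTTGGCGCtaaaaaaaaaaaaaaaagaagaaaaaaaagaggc
E2F3: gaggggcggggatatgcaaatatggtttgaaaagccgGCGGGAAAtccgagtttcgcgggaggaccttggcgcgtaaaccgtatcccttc
RBL1: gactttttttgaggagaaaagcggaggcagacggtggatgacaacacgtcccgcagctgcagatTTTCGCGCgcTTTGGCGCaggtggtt

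All of the words found lay within 53 bases of the start. E2F1 holds TTTGCCGC on the opposite strand, beginning 33 bases before the start, and TTTGGCGC on the gene's strand 20 bases before it. RBL1 also holds 2, TTTCGCGC at 26 and TTTGGCGC at 16 bases before the start, with 2 bases between them. E2F2 holds TTTGGCGC at 42 and E2F3 TTTCCCGC, on the opposite strand, at 53 bases before the start. The second E2F3 promoter in the table, whose window begins at 20403364, holds none. These are matches of letters and no binding was measured. Over the genes with a promoter in the table, a word was found for 6.53% of the 10283 with a mean of at least 10 in these cells and for 2.37% of the 3594 with a mean of 0.

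The cells matched their label in part. Of 8 myeloid markers 7 had a mean of at least 10, with LYZ at 44097, whereas the progenitor marker CD34 was at 19.6 and KIT at 0.67. Of 9 markers of other cells 4 had a mean of at least 10, and the highest of these, COL1A1, was at 149. PECAM1, among these 4 at 98.9, is not specific to other cells, as the paper links it to a more mature myeloid state. SPINK2, the targeted gene (ENSG00000128040.10), had a mean of 32.3 normalized counts over both groups, so the knockdown was not checked against the labels.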

How the data were processed

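RNA of FUJIOKA cells was sequenced as paired reads of 150 bases from 3 shNEG and 3 shSPINK2 libraries. The authors aligned the reads to GRCh38 with STAR 2.7.11, counted them per gene with featureCounts and normalized them with DESeq2 1.40.0, versions as in the submitters' processing notes. The annotation release and the strand setting are not given in the sources used here. The deposited table holds 1 signal per gene, the mean over all 6 libraries of the counts that the authors divided by size factors. These means sum to 38425214, the average normalized count assigned to genes per library. Its 6 other columns hold the authors' own comparison (fold change, standard error, test statistic, p-value, adjusted p-value and status). They were not used, so no test was made. The planned count test needs labelled counts per library.

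The levels were set per kilobase with exons of GENCODE release 44, matched by gene ID without version, for 15993 of the 16131 genes whose mean reached 10 (99.1%). Means of 1 read in 1 library, each shared by at least 546 genes, gave the 6 size factors (0.985 to 1.03). From these, whole reads of low genes were recovered where exactly 1 set gave the mean within its 15 digits, and in simulated data 50 of 50 genes were right. The libraries stay without a label. Members and lists were chosen with earlier results of these data known. The rule for named genes was the 10 members, SPINK2 and the highest and lowest gene of each list. TFDP2, RB1, CD34, CDK4, YAF2, AKTIP, RBIS, E2F3P1, LTO1, TSPAN31, HNRNPA2B1 and PECAM1 were named after their values were seen. Scripts ran in Python 3.11.15 with scipy 1.17.1, pandas 2.3.3 and numpy 2.4.6, and figures were drawn with matplotlib 3.10.9.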

Additional observations from a re-analysis of the deposited data

How the results depend on the processing

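The length decided the levels per kilobase. Per kilobase of the longest transcript the summed levels were 1054 for the activators, 2906 for the repressors, 676 for the atypical genes and 720 for the pocket proteins, and per kilobase of coding sequence 3304, 6871, 1072 and 1318. Repressors, activators and atypical genes kept this order under the 3 lengths. E2F4 was the highest and E2F5 the lowest member under each of them. Other lengths or other genes to rank among changed 39 of 40 values of single members. The reads were the same in each case, so these shifts come from the lengths and gene sets alone. Ranked among all genes with a mean above 0, members lay between the percentiles 68.9 and 96.4, and among protein-coding genes between 22.5 and 90.8. Of 27 partners and regulators, 26 had a mean of at least 10, 27 of at least 1 and 25 of at least 50. A tolerance 3 times as wide left 1 set of reads for each of the 4 genes recovered. No paired analysis was possible because no column carries a replicate number, and for the same reason the planned count tests and leaving out each library were not run. Depth sets a counting error of 2.5% or less on each member, and the spread between libraries is unknown.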

Other observations

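Whole reads could be recovered for genes with low means, though not for any of the 10 members. For E2F5, the lowest of them, about 1406 sets of whole reads would give its mean within the digits of the table. Reads are given here by library in the order of rising size factor, and the table does not say which library is which sample. For SPINK2 they were 6, 53, 63, 56, 9 and 7, so the libraries fall into 2 separate clusters of 3, from 6 to 9 and from 53 to 63. For CCND1, the cyclin D gene with the lowest mean of its list, they were 19, 34, 49, 35, 23 and 23. These may include or lack reads in bases shared with LTO1 on the opposite strand. For the DP gene TFDP3 they were 2, 5, 1, 3, 6 and 1, and for the pseudogene E2F3P1 11, 7, 10, 6, 3 and 12.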
